A study of Mus musculus with 6 samples.

Results

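The genes described here are 10 fetal growth genes: Lin28a, Lin28b, Hmga1, Hmga2, Igf2bp1, Igf2bp2, Igf2bp3, Plag1, Mycn and Myc. They were listed by name and not by a rule on measured values, but earlier results of these data were known at that time. They are 10 of the 25043 genes in the deposited table. Each gene was represented by the RefSeq transcript with its highest mean, and positions are those of its GENCODE model (mm10). RNA was sequenced from primary mouse embryonic fibroblasts (MEFs), which are cells grown out of mouse embryos, kept below passage 8 in DMEM with fetal bovine serum. There were 3 libraries from wild-type (WT) MEFs and 3 from MEFs that carry the Anp32e null allele (Anp32e-/-), made from total RNA with a stranded kit. ANP32E is the chaperone that removes the histone variant H2A.Z from chromatin. The labels do not say whether the 3 libraries of a genotype came from separate embryos. The values used are normalized counts averaged by the authors over all 6 libraries of both genotypes, so they describe the level of each gene in these fibroblasts and carry no SD, and no comparison of Anp32e-/- with WT was made. For the same reason the loss of Anp32e could not be checked here, where the mean of Anp32e over both genotypes was 2190 normalized counts.

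LIN28A and LIN28B are RNA-binding proteins that block the maturation of the let-7 microRNAs, and let-7 in turn represses Lin28, Hmga2, the Igf2bp genes and Myc, so that embryonic cells tend to have high LIN28 and low let-7 and adult cells the reverse. HMGA1 and HMGA2 are AT-hook proteins that bend DNA, and IGF2BP1, IGF2BP2 and IGF2BP3 bind and stabilize mRNAs, among them those of Igf2 and Myc. PLAG1 is a zinc-finger activator of Igf2, and MYCN and MYC are transcription factors that bind DNA with MAX and drive growth.

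The levels of the 10 genes ran from 0 reads for Lin28a to the 98.8 percentile of genes with reads for Hmga1. Of the 10 genes, 9 had reads and 8 reached a mean of 10 normalized counts, as did 73.9% of the 19275 genes with reads. The mean of 6 genes was above that of the median gene with reads, 350 normalized counts, and that of 4 genes (Hmga1, Hmga2, Igf2bp2 and Myc) was in the top 10% of genes. These places rest on counts not divided by length. Per kb, Hmga1, Hmga2 and Myc were at the 98.5, 96.0 and 91.6 percentiles, Igf2bp2 at 87.1 and Igf2bp1 at 66.2. Per kb of transcript, the order of levels from high to low was Hmga1, Hmga2, Myc, Igf2bp2, Igf2bp3, Igf2bp1, Plag1, Mycn, Lin28b and Lin28a. The spread over libraries is unknown for all but the lowest of them, so whether neighbours in this order differ beyond that spread was not tested.

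**Figure D1:**
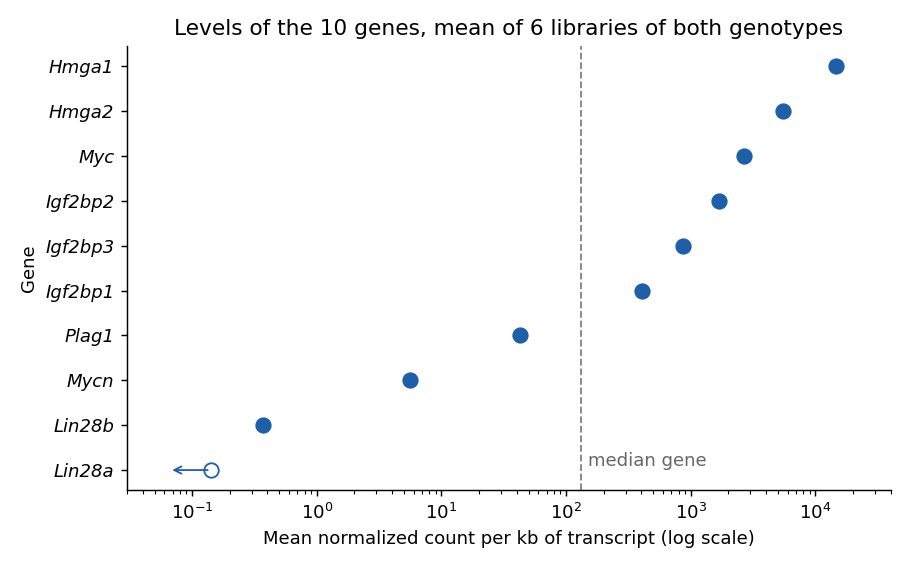
Mean normalized count per kb of transcript (log axis) of each gene, averaged by the authors over 6 libraries of both genotypes; the dashed line is the median gene with reads, 131 per kb. The open circle of Lin28a marks the upper limit that 0 reads allow, and the other points run from 0.373 per kb for Lin28b to 14673 per kb for Hmga1.

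The LIN28 genes were at the bottom of the range. Lin28a (NM_145833, chr4:134003330-134018841, minus strand, 4 exons) had 0 reads in every library, and 3 reads over the 6 libraries, the limit that a count of 0 allows, would be a mean of 0.499 normalized counts. Lin28b (NM_001031772, chr10:45376620-45470201, minus strand, 5 exons) had a mean of 2.02 normalized counts, which 15.8% of genes with reads did not exceed. Per kb of its 5402-base transcript this was 0.373, at the 8.42 percentile of levels per kb. The mean is built from whole reads divided by 6 size factors, which were not given and were inferred from the 6 smallest means. With these size factors, the digits of the Lin28b mean gave the reads behind it: 13 reads in all, in 4 of the 6 libraries. The libraries, in order of falling size factor (1.13, 1.05, 1.03, 0.987, 0.936 and 0.909), held 8, 2, 0, 2, 0 and 1 reads of Lin28b, and their genotypes are unknown. One library thus held 8 of the 13 reads, and without that library, an alternative chosen after seeing the data, the mean of the other 5 was 1.01 normalized counts, or 0.186 per kb. The exact Poisson 95% interval of the library with 8 reads, 3.05 to 13.9 normalized counts, overlaps the interval of 0.230 to 6.87 of the library with size factor 1.05. Its overlap with the libraries that held 0 reads was narrow, at 0 to 3.59 (size factor 1.03) and 0 to 3.94 (size factor 0.936). Whether the libraries differed beyond counting error was not tested for Lin28b. Such intervals cover counting error only.

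The HMGA genes were at the top. Hmga1 (NM_001166537, chr17:27556668-27563663, plus strand, 5 exons) had a mean of 27849 normalized counts, exceeded by 233 of the 25043 genes, and 14673 per kb of its 1898-base transcript. The reads of Hmga1 cannot be told apart from those of Hmga1b, a protein-coding copy with a single exon on another chromosome (chr11:120762794-120764419). Both Hmga1b transcripts had a mean of 27338 normalized counts, which is 98.2% of the Hmga1 mean and differs from that of one Hmga1 transcript by a single read, in the library with size factor 0.936. The 14 Hmga1 transcripts took 7 distinct values between 27336 and 27849 normalized counts, a spread of 1.88%, and the Hmga1 transcript with the highest mean was 511 normalized counts above Hmga1b. The level given for Hmga1 may therefore be that of the pair. In the annotation, Hmga1 also shares 102 exonic bases with AI413582 on the opposite strand, which had a mean of 1119 normalized counts.

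Hmga2 (NM_001347170, chr10:120361275-120476469, minus strand, 6 exons) had a mean of 21088 normalized counts, exceeded by 350 genes, and 5535 per kb of its 3810-base transcript. Its other transcript had 21070 normalized counts, 0.0817% lower. Per kb, Hmga1 was 2.65-fold above Hmga2. The pseudogene Hmga2-ps1 had a mean of 84.6 normalized counts.

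The 3 IGF2BP genes were all well above the median gene. Igf2bp2 (NM_183029, chr16:22059009-22163299, minus strand, 16 exons) was highest, with 6604 normalized counts and 1694 per kb. Igf2bp3 (NM_023670, chr6:49085223-49214957, minus strand, 15 exons) had 3753 normalized counts and 864 per kb. Igf2bp1 (NM_009951, chr11:95957163-96005940, minus strand, 15 exons) had 3419 normalized counts, a mean close to that of Igf2bp3, but on an 8378-base transcript this was 408 per kb. Per kb, Igf2bp2 was thus 1.96-fold above Igf2bp3 and 4.15-fold above Igf2bp1. In the annotation, 1529 exonic bases of Igf2bp3 are shared with Malsu1 on the opposite strand, which had 1072 normalized counts, and 92 bases of Igf2bp1 are shared with the microRNA gene Mir3063. The study's methods state counting at default settings, which do not use strand and drop reads shared by overlapping features. The options used are not settled here, so how reads in the shared bases entered the Igf2bp3 value is unknown.

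Among the transcription factors, Myc was high, Plag1 was somewhat below the median gene and Mycn was low. Myc (NM_001177352, chr15:61985391-61990350, plus strand, 3 exons) had 6278 normalized counts and 2685 per kb. Its 4 transcripts took 2 distinct values, which were 3 reads apart over the 6 libraries. Mycn (NM_008709, chr12:12936093-12941914, minus strand, 3 exons) had a mean of 15.1 normalized counts and 5.64 per kb, so that Myc was 476-fold above Mycn per kb. Plag1 (NM_019969, chr4:3900996-3938382, minus strand, 6 exons) had 202 normalized counts and 42.3 per kb, and 45.2% of genes with reads did not exceed its mean.

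The digits of the Mycn mean gave 88 reads. In the same order of libraries, Mycn had 4, 1, 33, 2, 31 and 17 reads, or 3.54, 0.951, 32.1, 2.03, 33.1 and 18.7 normalized counts. The lowest library had an exact Poisson 95% interval of 0.0241 to 5.30 normalized counts and the highest one of 22.5 to 47.0, so the libraries differed by more than counting error. The mean of 15.1 normalized counts thus lies between 3 libraries at 18.7 or more and 3 at 3.54 or less. Genotypes cannot be assigned to these libraries, so no difference between genotypes can be read from the spread. Myc, Plag1 and the other genes had means above 40 normalized counts, whose reads were not recovered.

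**Figure D2:**
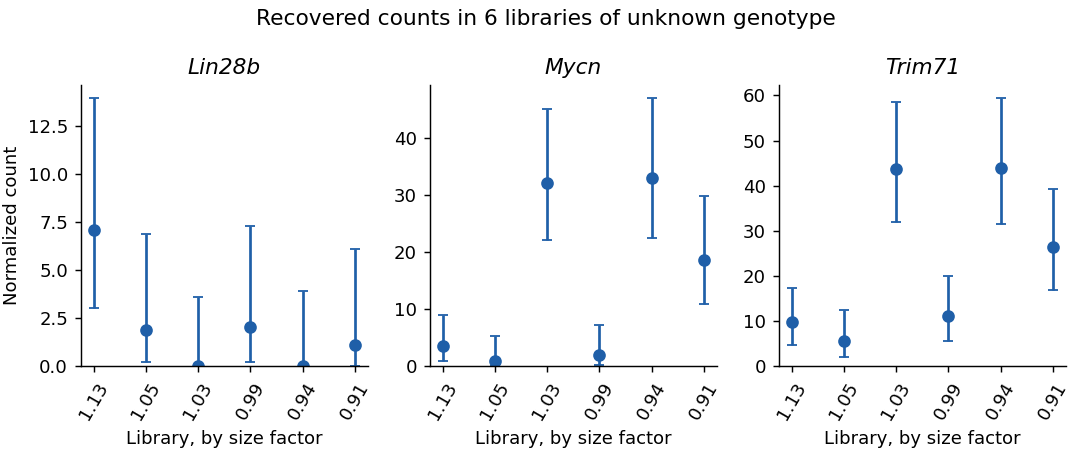
Normalized counts of Lin28b, Mycn and Trim71 in each of 6 libraries, recovered from the digits of the authors' mean; the x axis orders libraries by size factor, their genotypes are unknown, and bars are exact Poisson 95% intervals. Lin28b runs from 0 to 7.07, Mycn from 0.951 to 33.1 and Trim71 from 5.71 to 43.8 normalized counts.

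**Figure D3:**
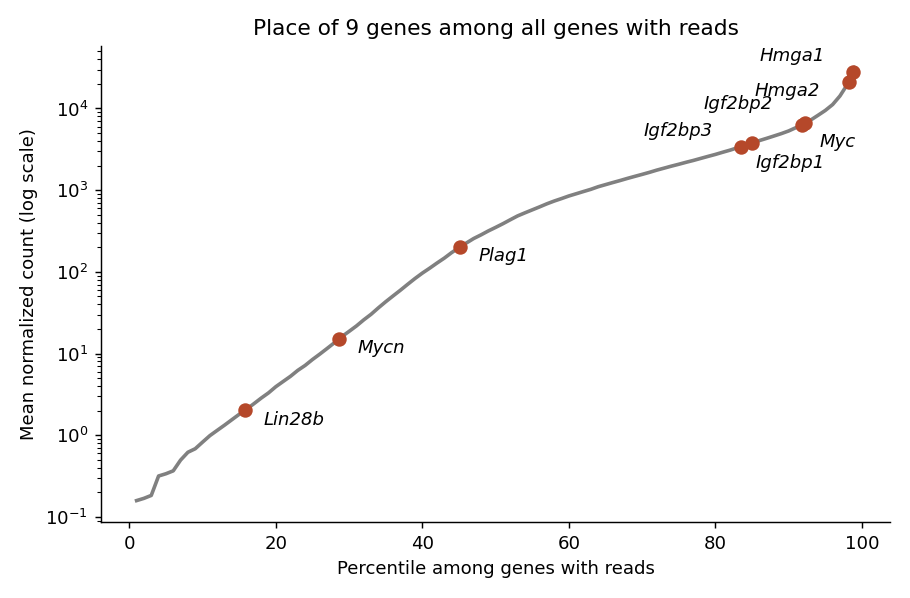
Mean normalized count (log axis) against percentile among the 19275 genes with reads; the line is all genes and the points are the 9 listed genes that had reads. Hmga1 and Hmga2 lie at the 98.8 and 98.2 percentiles, Plag1 at 45.2, Mycn at 28.6 and Lin28b at 15.8.

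let-7 binds its targets through the seed, bases 2 to 8 of the microRNA, and the mature sequences are shown because the seed sets the match searched for in the 3′ UTRs. Of 11 mature let-7 and miR-98 sequences in RefSeq (GRCm38), 10 shared the seed GAGGUAG, in capitals here, and let-7j had another.
let-7a-5p: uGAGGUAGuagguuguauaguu
let-7d-5p: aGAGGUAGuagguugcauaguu
let-7e-5p: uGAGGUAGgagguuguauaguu
let-7g-5p: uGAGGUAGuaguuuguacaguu
miR-98-5p: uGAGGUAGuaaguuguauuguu
let-7j: uGAGGUAUuaguuugugcuguuau

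The complement of the seed, CTACCTC, was looked for on the transcript strand in the annotated 3′ UTR of each gene. A match is a description of the sequence and does not show that the site is used. At least 1 match was present in 7 of the 10 genes, with 17 matches in all, and both LIN28 genes, both HMGA genes and the 3 IGF2BP genes held one. No match was found in Plag1, Mycn or Myc, whose 3′ UTRs are 2694, 913 and 442 bases long. Of 14788 genes with reads and an annotated 3′ UTR, 8.82% held a match. This share rose with length, from 3.26% of 3′ UTRs under 1000 bases to 30.6% of those of 4000 bases or more. Lin28b, Hmga2 and Igf2bp1 held 4 matches each, a number that 10 of the 14788 genes reached, and Lin28a held 2, which 1.09% of genes reached. The share with 2 or more also rose with length, to 2.51% of 3′ UTRs of 2000 to 4000 bases and 7.63% of those of 4000 or more. The count of genes with 4 matches was not compared by length. Hmga1, Igf2bp2 and Igf2bp3 held 1 match each. Per kb of 3′ UTR, the density of matches was highest in Hmga2 (1.33) and lowest in Igf2bp3 (0.472) among the genes that had one.

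The windows around 1 match of each of these genes are given in GRCm38 (mm10) coordinates, with the match in capitals. Where an A follows the match, an 8-base match that the microRNA machinery prefers, it is in capitals too.
Lin28a, base 909 of the 3′ UTR, chr4:134005185-134005212, minus strand: tgcacagcctgttgaaCTACCTCAtttt
Lin28b, base 36 of the 3′ UTR, chr10:45381018-45381045, minus strand: cacccgggcgggaagtCTACCTCAtgca
Hmga1, base 801 of the 3′ UTR, chr17:27563276-27563303, plus strand: ctcctctgttcacaaaCTACCTCtggac
Hmga2, base 58 of the 3′ UTR, chr10:120364220-120364247, minus strand: cgccgacattcaatttCTACCTCAgcat
Igf2bp1, base 1715 of the 3′ UTR, chr11:95961774-95961801, minus strand: tgctgtgcgaagtaaaCTACCTCAaggt
Igf2bp2, base 1313 of the 3′ UTR, chr16:22059469-22059496, minus strand: aacacacaaataaaagCTACCTCAggtg
Igf2bp3, base 548 of the 3′ UTR, chr6:49086783-49086810, minus strand: gtgcatttttactcaaCTACCTCAggta

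The 8-base match was present in 6 of the 7 genes, all but Hmga1. An 8-base match was held by 3.06% of the 14788 genes with reads and an annotated 3′ UTR. The share was 11.8% among 3′ UTRs of 4000 bases or more. In Lin28b and Hmga2, the first match began at bases 36 and 58 of the 3′ UTR and was the only 8-base match of its gene, whereas 3 of the 4 matches of Igf2bp1 were of this kind. The genes with matches were found at both ends of the range of levels: Hmga2 and Lin28b held 4 each, and their levels were 5535 and 0.373 normalized counts per kb.

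**Figure D4:**
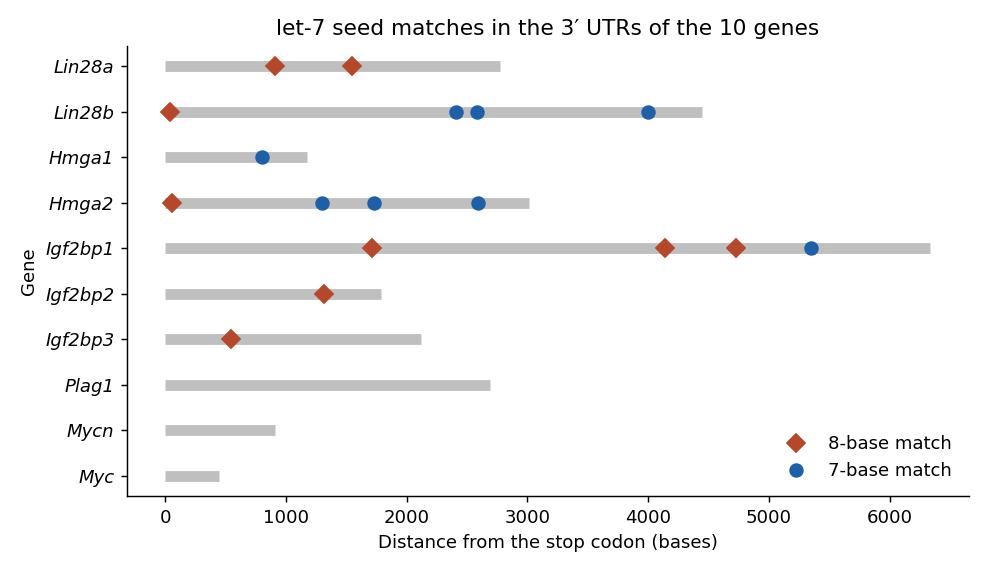
Position of let-7 seed matches along the 3′ UTR of each gene, in bases from the stop codon; grey bars are the 3′ UTRs, diamonds 8-base and circles 7-base matches. Lin28b, Hmga2 and Igf2bp1 have 4 matches each, and Plag1, Mycn and Myc have none.

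The let-7 genes themselves had few reads. The libraries were made from total RNA without selection of small RNAs, so these rows measure precursor transcripts and not mature let-7. Of 12 precursor genes of the let-7 family, 11 had reads and 4 reached a mean of 10 normalized counts, against 73.9% of all genes with reads. The highest was Mirlet7f-1, with a mean of 25.5 normalized counts and between 11 and 42 reads in each library. Its neighbours in the same cluster, Mirlet7a-1 and Mirlet7d, had means of 22.8 and 12.6 normalized counts. By mean, Mirlet7f-1 and Mirlet7a-1 lay at the 31.9 and 31.3 percentiles of genes with reads. Per kb they were at 286 and 243 normalized counts, with Mirlet7i and Mirlet7d at 126 and 122 and the median gene at 131. The annotated precursors, 89 bases for Mirlet7f-1 and 94 for Mirlet7a-1, are shorter than a sequencing read. Their values per kb therefore cannot be set against those of long transcripts. Mirlet7g had 1 read and Mirlet7f-2 had 0 in all libraries.

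RNA of the enzymes and cofactors of let-7 maturation and turnover was detected, and protein was not measured. All 9 genes of that list passed a mean of 10 normalized counts, as did 73.9% of all genes with reads. Their median was 2010. The highest was Xpo5, the exporter of microRNA precursors, with 11179 normalized counts and 2200 per kb. Tut4 and Tut7, the uridylyl transferases that LIN28A recruits to let-7 precursors, had 520 and 1931 normalized counts, and Dis3l2, the nuclease that degrades uridylated precursors, had 655. Dicer1, which cuts the precursor, had 2010 normalized counts. The lowest was Trim71, a let-7 target of early embryos, with a mean of 23.4 normalized counts and 2.51 per kb. Its reads in the 6 libraries, in the order used above, were 11, 6, 45, 11, 41 and 24.

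In the MYC network list, all 9 genes passed a mean of 10 normalized counts, against 73.9% of all genes with reads, with a median of 1580. Mxd3, a MAX-binding repressor, was highest with 6487 normalized counts, Max itself had 3210, and Mxd1 was lowest with 340. Mycl, the remaining MYC paralogue, had 370 normalized counts and 106 per kb, a level per kb between those of Myc and Mycn. In the PLAG and IGF2 list, all 6 genes passed a mean of 10 normalized counts, against the same 73.9%. H19, the imprinted noncoding RNA next to Igf2, was highest with 14954 normalized counts, and Igf2, the fetal growth factor, was lowest with 679. Plagl1 and Plagl2, the paralogues of Plag1, had 403 and 129 normalized counts per kb against 42.3 for Plag1. The receptors Igf1r and Igf2r had 551 and 884 per kb.

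The promoters are shown for the gene with the highest level and for 2 genes whose windows hold other motifs, from RefSeq (GRCm38.p6), with 250 bases before and 50 after the start. Capitals mark the motifs CCAAT (bound by NF-Y), GGGCGG (bound by SP1) and CACGTG (the E-box bound by MYC and MAX) on either strand.
Hmga1, chr17:27556324-27556623, plus strand: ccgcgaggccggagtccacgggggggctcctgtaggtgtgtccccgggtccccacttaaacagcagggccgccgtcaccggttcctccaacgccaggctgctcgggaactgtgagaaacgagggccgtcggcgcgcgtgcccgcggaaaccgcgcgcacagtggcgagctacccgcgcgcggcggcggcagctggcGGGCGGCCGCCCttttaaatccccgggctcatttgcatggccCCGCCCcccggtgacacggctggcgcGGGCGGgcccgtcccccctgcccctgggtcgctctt
Lin28b, chr10:45470152-45470451, minus strand: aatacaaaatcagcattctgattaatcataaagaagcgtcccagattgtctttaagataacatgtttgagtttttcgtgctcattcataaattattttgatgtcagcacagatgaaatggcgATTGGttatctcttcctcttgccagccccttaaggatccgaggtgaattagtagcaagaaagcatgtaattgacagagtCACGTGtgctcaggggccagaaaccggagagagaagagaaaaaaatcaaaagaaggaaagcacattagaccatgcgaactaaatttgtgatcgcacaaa
Igf2bp3, chr6:49214905-49215204, minus strand: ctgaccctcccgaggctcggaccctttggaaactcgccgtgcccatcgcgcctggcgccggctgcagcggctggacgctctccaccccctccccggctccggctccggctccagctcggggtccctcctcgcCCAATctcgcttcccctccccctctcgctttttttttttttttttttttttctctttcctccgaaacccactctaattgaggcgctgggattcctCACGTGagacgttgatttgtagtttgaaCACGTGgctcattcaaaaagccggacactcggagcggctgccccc

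RefSeq promoter windows were at hand for 7 of the 10 genes: Lin28a, Lin28b, Hmga1, Hmga2, Igf2bp2, Igf2bp3 and Mycn. Hmga1 had a pair of overlapping windows with the same motifs, of which the first is shown, and their starts lie upstream of the Hmga1 model used above. The Lin28b window surrounds the start of the Lin28b transcript used above, and other Lin28b models start further upstream. GGGCGG was present in 5 of the 7 (Lin28a, Hmga1, Hmga2, Igf2bp2 and Mycn), against 35.7% of 32851 promoters, and Hmga1 held 4 copies, of which an adjoining pair lay on opposite strands. CCAAT was present in 2 (Lin28b and Igf2bp3), against 37.4% of promoters, and CACGTG in the same 2 genes, against 7.15%. The GC content was 39.0% in the Lin28b window and 76.7% in the Igf2bp2 window, with a median of 52.7% over all promoters. With 7 windows these counts are a description, and a motif that is missing from a window says nothing about the factor.

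Marker lists were read as a check of the labelled cell type, and the fibroblast list had the highest median, 5164 normalized counts, against 46.9 for the next, the epithelial list. Of 9 fibroblast markers, 8 reached a mean of 10 normalized counts, from 144 for Dcn to 330695 for Vim, and Lum had 1.33. Dcn and Lum were below the median gene. Of all genes with reads, 73.9% reached a mean of 10 normalized counts. Of 7 pluripotency markers, Zfp42, Dppa5a and Tdgf1 had 0 reads, Esrrb had 1.14 and Pou5f1 2.43 normalized counts, and Nanog and Sox2 reached 11.5 and 114. Among the 4 genes of each remaining list, 3 epithelial, 2 endothelial, 2 macrophage, 1 skeletal muscle and 0 neural crest or glia markers reached 10, with the highest values in Kdr (2958) and Krt18 (1106), both above the fibroblast markers Pdgfra (628), Dcn and Lum. These markers were averaged over both genotypes, and their part in the levels of the 10 genes was not tested. In bulk RNA, fewer cells that express a gene and less RNA per cell cannot be told apart.

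**Figure D5:**
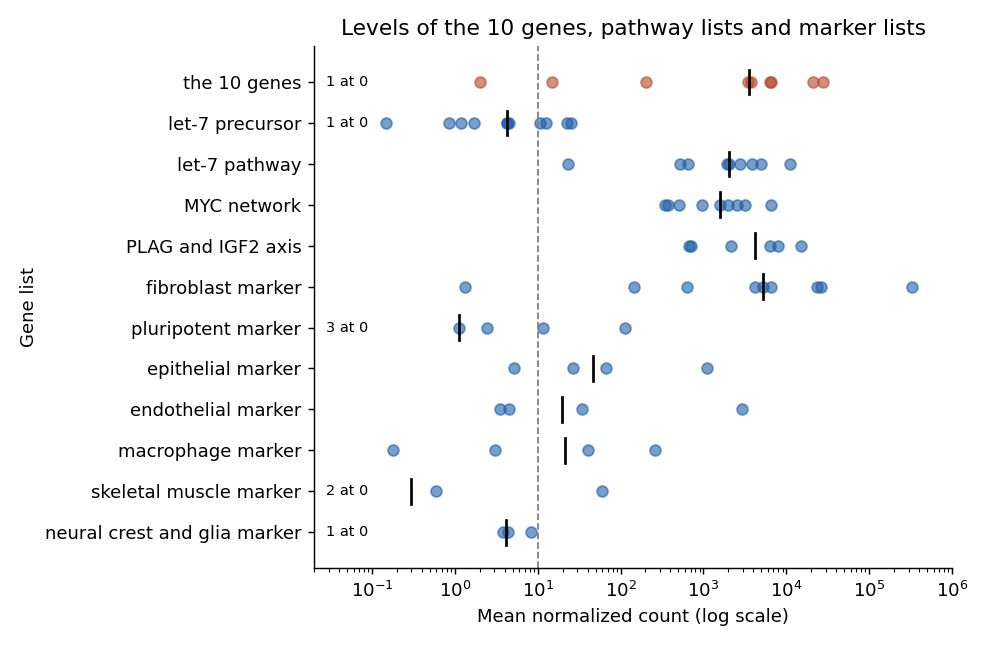
Mean normalized count (log axis) of each gene of the 10-gene list, of the let-7 precursors, of 3 pathway lists and of 7 marker lists; each point is a gene, the bars are list medians and the dashed line is 10 normalized counts. The 10 genes run from 0 to 27849, and the fibroblast markers from 1.33 to 330695.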

How the data were processed

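Total RNA libraries of 3 WT and 3 Anp32e null MEF samples were analysed. The submitters' processing notes name STAR, Subread, featureCounts, DESeq2 and deepTools and the build mm10; the study's methods give alignment with STAR and counting and comparison by featureCounts and DESeq2 at default settings, run by the authors. Default featureCounts is unstranded and drops reads shared by overlapping features, yet transcripts of one gene held shared reads in the table, so the options used are not settled here. The authors deposited 1 table of 42361 RefSeq transcripts, whose mean column is a signal: counts per library divided by a size factor and averaged over all 6 libraries. Its 5 other columns hold the authors' comparison of genotypes (fold change, standard error, statistic, p-value and adjusted p-value) and were not used; columns per library were 0, so no test was run. The level and precision of one library are known for low genes only.

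Transcripts were matched to symbols with RefSeq (42203 of 42361) and to GENCODE M21 models for length, position and 3′ UTR, taking the longest model where several matched; 17323 of 19275 genes with reads had a length. The 10 genes, the companion lists and the markers were chosen with earlier results of these data known. All 10 genes were named, with the highest and lowest gene of each companion list, any other list gene a sentence needed, and Anp32e. The let-7 precursors, Malsu1, AI413582, Hmga1b, Hmga2-ps1 and Mir3063 were added after the table was seen.

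The 6 smallest means gave what 1 read is worth in each library, and whole-number reads were then solved from each mean under 40 with a relative tolerance of 3e-14. A single solution came out for 100 of 100 sampled means of the table under 5, 100 of 100 between 5 and 20, and 85 of 100 between 20 and 40. The solver was also tested, separately, on simulated data. Tables were joined with pandas 2.3.3, intervals came from scipy 1.17.1, and arrays were handled in numpy 2.4.6 (Python 3.11.15). Alternatives changed the transcript, the minimum, the length, the genes ranked, the seed match, the strand of motifs and the tolerance.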

Additional observations from a re-analysis of the deposited data

How the results depend on the processing

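The number of genes at or above the minimum stayed within 1.5 times of 8 with another transcript or sum (8), a minimum of 1 (9) or 50 (7). The order per kb was the same for all 10 genes with coding length or summed transcripts, and 6 genes stayed above the median among genes at 10 or more and among autosomal genes. Only Hmga1, Hmga2 and Myc had transcripts of different value, and they were already the highest per kb. Summing therefore could not move another gene past them. Their transcripts differed by at most 1.88%, so neither another transcript nor a sum could change the count of 8. Of the 20 levels per kb recomputed this way for single genes, 8 stayed within the counting interval and 12 moved out of it, upwards. A shorter length or a sum of transcripts can only raise a level or leave it unchanged. These numbers therefore do not measure how stable the levels are. Matches of 6 bases were present in 8 genes and of 8 bases in 6, against 7. Over all genes compared, 22.4% held a 6-base match and 3.06% an 8-base match. For 3′ UTRs of 4000 bases or more, the shares were 69.1% and 11.8%. On the gene's own strand alone, CCAAT was present in 1 promoter and not 2, and GGGCGG in 2 and not 5, of 7 windows, against 21.1% and 23.4% of all promoters on that strand. The level of Lin28b without the library with size factor 1.13, an alternative chosen after seeing the data, was 0.186 per kb against 0.373. Recovered reads had a single solution for the same number of genes, 2, at a tolerance 10 times as wide. Summing transcripts counts the shared reads of Hmga1, Hmga2 and Myc repeatedly. No paired analysis was possible because the table holds 1 mean over all libraries. For this reason leaving out each replicate was not run either, and the protein identity of paralogues was not run. The depth of single libraries is known only as inferred size factors, and reads of a gene above a mean of 40 could not be recovered.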

Other observations

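The recovered reads of Mycn and Trim71 were highest in the same 3 of the 6 libraries, whose genotypes are unknown. In the libraries with size factors 1.13, 1.05, 1.03, 0.987, 0.936 and 0.909, Mycn had 4, 1, 33, 2, 31 and 17 reads and Trim71 had 11, 6, 45, 11, 41 and 24 reads. The exact Poisson 95% intervals of Mycn left a gap between the 3 higher and the 3 lower libraries, whereas for Trim71 the interval of the library with size factor 0.909 (16.9 to 39.3 normalized counts) overlapped that of the library with size factor 0.987 (5.56 to 19.9). In the same order, Lin28b had 8, 2, 0, 2, 0 and 1 reads, Nanog, a pluripotency marker, had 10, 8, 23, 3, 5 and 20, and Mirlet7f-1 had 42, 32, 25, 11, 25 and 21. Normalized counts of the precursors Mirlet7i, Mir98 and Mirlet7c-1 were also highest in the 3 libraries where Mycn and Trim71 were highest. Those of Mirlet7i were 6.19, 5.71, 14.6, 4.05, 21.4 and 12.1 in the same order, and Mir98 and Mirlet7c-1 had only 25 and 7 reads in all. For Mirlet7c-1, the libraries with size factors 0.987 and 0.936 held 1 read each, so only the size factor set their order. The other precursors with reads did not follow this split. Mirlet7a-1 had 12.4, 27.6, 20.4, 8.10, 33.1 and 35.2 normalized counts, and Mirlet7d had 13.3, 12.4, 17.5, 7.09, 6.41 and 18.7. The likenesses named above were noticed after the values were seen, among 29 listed genes with recovered reads, and were not tested.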
